A study of Mus musculus with 8 samples.

Results

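The 9 genes described here encode transcription factors that set the identity of natural killer (NK) cells, of type 1 innate lymphoid cells (ILC1) and of T cells: Eomes, Tbx21, Gata3, Runx3, Zeb2, Tcf7, Tox, Bcl11b and Ikzf3. They were chosen by symbol, and all 9 were among the 10825 genes of the deposited count table. Their Ensembl identifiers there are ENSMUSG00000032446 (Eomes), ENSMUSG00000001444 (Tbx21), ENSMUSG00000015619 (Gata3), ENSMUSG00000070691 (Runx3), ENSMUSG00000026872 (Zeb2), ENSMUSG00000000782 (Tcf7), ENSMUSG00000041272 (Tox), ENSMUSG00000048251 (Bcl11b) and ENSMUSG00000018168 (Ikzf3). The cells were labelled as dendritic cells (DCs), the antigen-presenting cells that prime T cells, and were sorted from E0771 tumours, which grow from a mouse mammary carcinoma cell line. The tumours grew in wild-type mice that received either PBS, the vehicle control, or DRQ, given by the submitters as an inhibitor of CD74, from day 10 after injection, and tumours were taken at week 3. There were 4 libraries per group, and the labels give no strain, age or batch and do not state whether a library is 1 mouse or a pool, so p-values measure only the spread between these libraries, which may be technical.

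Lineage transcription factors act in combinations. In mouse, Tbx21 (T-bet) drives the type 1 program in NK cells, ILC1 and T cells, and its T-box relative Eomes is kept high in conventional NK cells and low in most ILC1. Bcl11b and Tcf7 (TCF-1) establish and maintain T cell identity, Gata3 acts in CD4 T cells, regulatory T cells and type 2 innate lymphoid cells (ILC2), and Runx3 acts in CD8 T cells, NK cells, ILC1 and some DCs. Zeb2 acts in late NK and effector T cell maturation and also in plasmacytoid DCs, in type 2 conventional DCs and in macrophages, so it is not a lymphocyte marker by itself. Tox acts in early lymphoid development and in exhausted T cells, and Ikzf3 (Aiolos) in mature NK, T and B cells.

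Runx3 has a distal and a proximal transcription start that both feed the same 3′ end, so the 3′-end counts given here sum both. The 200 bases that lie 250 to 51 bases before each start are shown because the counts cannot tell the 2 starts apart. They come from RefSeq (build GRCm38.p6), both on the plus strand, at chr4:135120395-135120594 for the distal and chr4:135152295-135152494 for the proximal start, and capitals mark the RUNX motif TGTGGT or its reverse complement ACCACA.
Runx3 distal: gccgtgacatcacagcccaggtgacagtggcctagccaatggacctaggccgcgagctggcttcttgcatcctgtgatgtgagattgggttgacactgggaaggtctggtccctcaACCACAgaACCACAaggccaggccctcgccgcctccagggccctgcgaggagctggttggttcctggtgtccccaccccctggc
Runx3 proximal: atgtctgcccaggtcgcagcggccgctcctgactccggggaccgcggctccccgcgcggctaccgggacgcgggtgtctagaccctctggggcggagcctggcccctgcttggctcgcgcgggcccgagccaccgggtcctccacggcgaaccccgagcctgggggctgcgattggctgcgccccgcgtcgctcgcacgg
The distal window held 2 matches that do not overlap, starting 134 and 126 bases before the start, and the proximal window held 0. The windows of Eomes, Tbx21, Gata3, Zeb2, Tcf7 and Bcl11b, with several starts for Zeb2 and Tcf7, held 0 matches and are not shown. No window was available for Tox or Ikzf3, so these were not searched. Of 32851 RefSeq promoter windows of the same length, 11.6% held the motif on either strand. The matches describe these letters and show no binding.

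The libraries held 361792 to 543892 counts, and levels are given as CPM, counts scaled to a common library total with TMM factors that correct for composition. A floor of 3 counts, the most that a count of 0 allows, equals 5.52 to 8.29 CPM before TMM factors, depending on the library, for counting error only. Conventional DC markers and lymphocyte markers were both abundant. The 11 conventional DC markers counted, led by Cst3 and Cd74, summed to 9063 to 15717 CPM in PBS and 16331 to 19015 CPM in DRQ, with the groups fully apart. The DC sum rests mainly on Cst3, Irf8 and the MHC class II pathway genes Cd74, H2-Ab1, H2-Aa and H2-Eb1. Each had a mean of 1740 to 3399 CPM over the 8 libraries, and Cd74 encodes the target given for DRQ. Itgax, Flt3 and Sirpa had means of 187, 38.7 and 34.4 CPM and overlapped between groups. Their log2 fold changes were -0.16 ± 0.19, 0.57 ± 0.39 and -0.07 ± 0.44 (SE, edgeR). Of the 9 DC markers tested, 7 had a log2 fold change above 0 and 2 below. All 14 NK cell markers were counted in all 8 libraries and summed to 11415 to 16266 CPM in PBS and 9697 to 15224 CPM in DRQ, led by the granule proteases Gzma and Gzmb. The 14 T cell markers counted, led by the T cell receptor gene Trbc1 and by Thy1, summed to 3110.5 to 3824 CPM in PBS and 3535 to 3933 CPM in DRQ. That sum rests mainly on a few genes. Means over the 8 libraries were 1239 CPM for Trbc1, 861 for Thy1 and 441 for Trbc2, against 44.9 for Cd3e and 44.5 for Cd8b1. The part of NK cells in that sum was not tested. The type 1 conventional DC markers Xcr1 and Clec9a were not found by symbol among the 10825 listed genes. The DC transcription factor gene Zbtb46 had 0 to 2.86 CPM in PBS and 2.29 to 23.2 CPM in DRQ. These values rest on 0, 1, 1 and 1 counts in the PBS libraries and 12, 3, 1 and 4 counts in the DRQ libraries. Zbtb46 did not pass the filter on low counts and was not tested.

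All 9 lineage factors were counted in all 8 libraries, with mean levels from 187 CPM for Runx3 to 7.62 CPM for Tox. The order by mean over the 8 libraries was Runx3 (187 CPM, rank 851 of the 10825 listed genes), Eomes (174 CPM, rank 920), Tbx21 (173 CPM, rank 930), Tcf7 (96.3 CPM, rank 1840), Gata3 (68.8 CPM, rank 2569), Ikzf3 (63.8 CPM, rank 2752), Zeb2 (31.8 CPM, rank 4819), Bcl11b (22.3 CPM, rank 5943) and Tox (rank 9303). These are levels of 3′-end counts, which are not divided by transcript length. Only 2 steps in this order held in all 8 libraries, from Tbx21 down to Tcf7 and from Ikzf3 down to Zeb2. Eomes lay above Tbx21 in 4 of 8 libraries, so those neighbours did not differ beyond their spread, and Runx3 lay above Eomes in 6, Tcf7 above Gata3 in 6, Gata3 above Ikzf3 in 6, Zeb2 above Bcl11b in 5 and Bcl11b above Tox in 7. Runx3, Eomes and Tbx21 were thus counted at higher mean levels than the T cell identity factors Tcf7 and Bcl11b, and also than Zeb2.

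**Figure D1:**
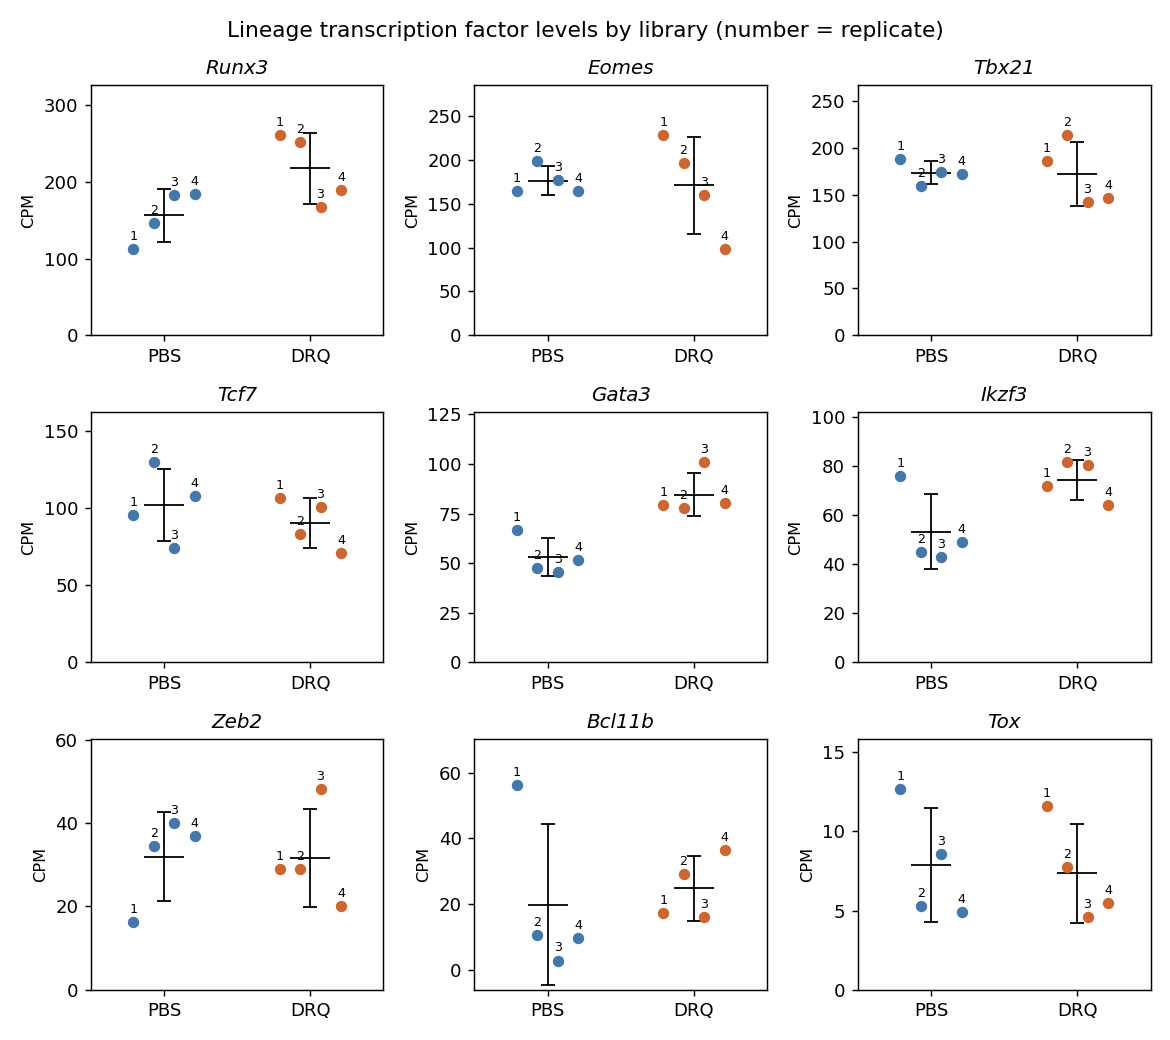
Level (CPM, linear axis, scaled by TMM factors) of each of the 9 lineage factors in the 4 PBS and 4 DRQ libraries; points are libraries numbered by replicate, the horizontal bar is the mean and the whiskers are 1 SD, and the Bcl11b axis starts below 0 only to show the whisker. Gata3 is the member whose DRQ points (77.7 to 101 CPM) all lie above its PBS points (45.8 to 66.9 CPM), and in the Bcl11b panel PBS replicate 1 stands at 56.1 CPM.

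The comparison of DRQ with PBS asked whether the transcripts of these factors differed after treatment with the CD74 inhibitor. No factor of the 7 that passed the filter on low counts was called (0 of 7; edgeR quasi-likelihood test, Benjamini-Hochberg adjustment over 6156 genes), where 0.0325% of all tested genes were called. Tox and Bcl11b did not pass the filter. At an unadjusted p under 0.05 edgeR gave 2 of the 7 higher, Gata3 and Runx3, and 0 lower, beside 3.98% of all tested genes higher and 3.28% lower. Of the 6 to which DESeq2 assigned an adjusted p it called 0, and limma-voom called 0 of the 7. The median log2 fold change of the 7 was 0.00, beside -0.01 over all genes tested.

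Eomes, which separates conventional NK cells from most ILC1 in mouse, stood at 165, 199, 177 and 165 CPM in the PBS libraries (replicates 1 to 4, in this order here and below) and at 228, 196, 161 and 98.7 CPM in the DRQ libraries. The groups overlapped, with DRQ replicate 1 the highest and DRQ replicate 4 the lowest of all 8 libraries. Its log2 fold change was -0.04 ± 0.21 (SE; approximate 95% interval -0.49 to 0.40; edgeR quasi-likelihood test, Benjamini-Hochberg adjusted p = 0.984), and it stood at 0.15 without DRQ replicate 4 and 0.02 without PBS replicate 2.

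Tbx21, the T-bet gene of type 1 lymphocytes, stood at 188, 159, 175 and 172 CPM in the PBS libraries and at 186, 214, 142 and 146 CPM in the DRQ libraries. The PBS libraries lay within the range of the DRQ libraries. Its log2 fold change was -0.01 ± 0.19 (SE; approximate 95% interval -0.40 to 0.37; edgeR quasi-likelihood test, Benjamini-Hochberg adjusted p = 0.995), and the estimate was above 0 in some alternative fits, up to 0.07 without DRQ replicate 3. For both T-box genes the interval thus spans changes of under 0.5 on the log2 scale in either direction, and smaller differences were not detectable here.

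Eomes exceeded Tbx21 in 4 libraries, 2 of each group, and Tbx21 exceeded Eomes in the other 4. The ratio of Eomes to Tbx21 counts, which no scaling changes, was 0.875, 1.25, 1.02 and 0.957 in the PBS libraries and 1.23, 0.918, 1.13 and 0.675 in the DRQ libraries. The groups overlapped, and DRQ replicate 4 was the lowest, from 54 Eomes and 80 Tbx21 counts. The 8 ILC1 markers summed to 177 to 244 CPM in PBS and 227 to 328 CPM in DRQ (log2 ratio of means 0.38, exact 2-sided permutation p = 0.0571, adjusted p = 0.200 over the 14 marker lists). Most of that sum came from Tmem176b and Tmem176a, which DCs and macrophages also transcribe. Tmem176b had 63.7 to 76.0 CPM in PBS and 93.2 to 140 CPM in DRQ, fully apart, with a log2 fold change of 0.77 ± 0.24 (SE; edgeR quasi-likelihood test, Benjamini-Hochberg adjusted p = 0.325), and Tmem176a had 59.7 to 63.7 CPM in PBS and 56.3 to 96.3 CPM in DRQ, overlapping. Kit had a mean of 32.0 ± 7.70 CPM with PBS and 28.8 ± 12.8 CPM with DRQ (SD, n = 4), and the interleukin-7 receptor gene Il7r, Cd200r1, Tnfsf10, Itga1 and Cxcr6 had 0 to 25.8 CPM in any library. In bulk samples, fewer cells of a type and less RNA per cell cannot be told apart, and neither can 1 cell type that transcribes both T-box genes and 2 cell types that transcribe 1 each.

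Runx3, the RUNX factor of cytotoxic lymphocytes that some DCs also use, had 112, 146, 183 and 184 CPM in the PBS libraries and 261, 252, 167 and 190 CPM in the DRQ libraries. DRQ replicates 1 and 2 were the highest and PBS replicate 1 the lowest, while DRQ replicate 3 lay inside the PBS range. The PBS mean was 156 ± 34.5 CPM and the DRQ mean 218 ± 46.2 CPM (SD, n = 4). The estimate of 0.49 ± 0.20 (log2, SE; approximate 95% interval 0.08 to 0.91) missed the threshold (edgeR quasi-likelihood test, Benjamini-Hochberg adjusted p = 0.585). It was 0.35 without PBS replicate 1. The summed conventional DC markers, which rest mainly on Cst3, Irf8 and MHC class II pathway genes, were above the PBS range in all 4 DRQ libraries. Their part in the Runx3 difference was not tested.

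Gata3, the factor of CD4 T cell and ILC2 development, had 66.9, 47.8, 45.8 and 51.6 CPM in the PBS libraries and 79.4, 77.7, 101 and 80.4 CPM in the DRQ libraries. The highest PBS library lay below the lowest DRQ library. Groups were fully apart in this direction for 1 of the 7 tested factors, beside 2.13% of all tested genes, and in the other direction for 0 of them, beside 2.18%. With Bcl11b and Tox included it was 1 of 9, beside 1.93% of all 10825 listed genes. The PBS mean was 53.0 ± 9.58 CPM and the DRQ mean 84.6 ± 10.9 CPM (SD, n = 4). The estimate of 0.65 ± 0.27 (log2, SE; approximate 95% interval 0.09 to 1.21) missed the threshold (edgeR quasi-likelihood test, Benjamini-Hochberg adjusted p = 0.587), and it ran from 0.56 to 0.80 when each library was left out in turn. The counts behind it were 16 to 37 per PBS library and 40 to 44 per DRQ library.

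Markers of several Gata3-transcribing cell types were set beside that difference. The 5 regulatory T cell markers, led by Tnfrsf18 and Ctla4, summed to 556 to 673 CPM in PBS and 762 to 846 CPM in DRQ, fully apart, with exact 2-sided permutation p = 0.0286, the smallest that 4 against 4 libraries can give, and adjusted p = 0.200 over the 14 marker lists. The conventional DC sum had the same p and adjusted p. The regulatory T cell sum rests mainly on Tnfrsf18, with a mean of 486 CPM over the 8 libraries. All 4 tested markers of that list had a log2 fold change above 0, from 0.21 for Tnfrsf18 to 1.35 for Ikzf2 (edgeR). Groups were fully apart for 1 of them, Foxp3, and overlapped for Tnfrsf18, Ctla4 and Ikzf2. Il2ra, which was not tested, averaged 16.3 CPM with PBS and 15.7 CPM with DRQ, overlapping. The T cell sum, led by Trbc1 and Thy1, overlapped between groups (exact 2-sided permutation p = 0.200, adjusted p = 0.350). Within that list edgeR's unadjusted p was under 0.05 for 5 of 14 markers, all higher in DRQ, beside 3.98% of all tested genes, and 0 were called. They were the CD4 coreceptor gene Cd4 (48.1 ± 29.6 CPM with PBS and 94.8 ± 26.5 CPM with DRQ, SD, n = 4), Cd5 (54.6 ± 26.6 and 107 ± 19.4 CPM), Cd3d (69.4 ± 26.1 and 125 ± 23.9 CPM), Trac and Cd6. Groups were fully apart for Cd3d, the CD3 delta chain gene, and overlapped for the other 4. The edgeR quasi-likelihood log2 fold changes were 0.92 ± 0.33 for Cd4, 0.94 ± 0.29 for Cd5 and 0.83 ± 0.26 for Cd3d (SE; Benjamini-Hochberg adjusted p = 0.458, 0.325 and 0.333). Of the 14 markers, 10 had a log2 fold change above 0 and 4 below. The CD3 chain genes Cd3e and Cd3g overlapped between groups, with log2 fold changes of -0.35 ± 0.40 and 0.39 ± 0.43 (SE, edgeR). The CD8 coreceptor gene Cd8a had 61.0 ± 19.1 CPM with PBS and 39.0 ± 16.0 CPM with DRQ (SD, n = 4), overlapping. The ILC2 and ILC3 sum also overlapped, at 14.3 to 59.7 CPM in PBS and 25.2 to 96.8 CPM in DRQ, of which 4 of 9 markers were counted. The defining ILC2 marker Il1rl1 had 0 to 7.24 CPM in PBS and 0 to 25.2 CPM in DRQ, so it was at or near 0 in several libraries. The part of each cell type in the Gata3 difference was not tested.

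Ikzf3, which encodes Aiolos, had 76.0, 45.1, 42.9 and 49.2 CPM in the PBS libraries and 71.6, 81.5, 80.3 and 64.0 CPM in the DRQ libraries. PBS replicate 1 lay among the DRQ libraries and the other 3 PBS libraries lay below them. Its log2 fold change was 0.45 ± 0.29 (SE; approximate 95% interval -0.14 to 1.04; edgeR quasi-likelihood test, Benjamini-Hochberg adjusted p = 0.783), and 0.69 without PBS replicate 1 (adjusted p = 0.669 by the same edgeR test).

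Tcf7, the TCF-1 gene of naive, memory and stem-like T cells and of lymphoid progenitors, had 95.9, 130, 74.4 and 108 CPM in the PBS libraries and 106, 83.5, 101 and 71.3 CPM in the DRQ libraries. The groups overlapped, and the highest value was in PBS replicate 2. The log2 fold change was -0.18 ± 0.25 (SE; approximate 95% interval -0.68 to 0.33; edgeR quasi-likelihood test, Benjamini-Hochberg adjusted p = 0.928), with -0.05 without PBS replicate 2. Lef1, which acts with Tcf7 in naive T cells, had 0 to 7 counts per PBS library and 1 to 4 per DRQ library and was not tested.

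Zeb2 had 16.3, 34.5, 40.1 and 36.9 CPM in the PBS libraries and 29.0, 29.1, 48.2 and 20.1 CPM in the DRQ libraries. PBS replicate 1 and DRQ replicate 4 were the lowest and DRQ replicate 3 the highest. The log2 fold change was 0.00 ± 0.34 (SE; approximate 95% interval -0.70 to 0.70; edgeR quasi-likelihood test, Benjamini-Hochberg adjusted p = 1.00), and it ran from -0.26 to 0.17 as libraries were left out. That SE is a ratio of 2 values near 0, so it and the interval are imprecise. In other fits of all 8 libraries the SE of Zeb2 was 0.41 with library totals alone, 0.46 with DESeq2 and 0.33 on the normalized table. Zeb2 shares exon bases with the antisense gene Zeb2os, which is also in the table, and without stated strand reads of the 2 cannot be told apart.

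Bcl11b, the factor of T cell commitment that ILC2 also use, was sparse. It had 31, 4, 1 and 4 counts in the PBS libraries (56.1, 10.6, 2.86 and 9.84 CPM) and 9, 15, 7 and 20 counts in the DRQ libraries (17.4, 29.1, 16.1 and 36.5 CPM). PBS replicate 1 was the highest of all libraries and the other 3 PBS libraries were the lowest. With no filter on low counts, its log2 fold change was 0.23 ± 0.55 (SE; edgeR quasi-likelihood test, Benjamini-Hochberg adjusted p = 0.977). That value rested on PBS replicate 1, without which it was 1.64 ± 0.64 (SE; adjusted p = 0.623 by the same edgeR test), and the mean of the PBS group was 19.8 CPM with it and 7.77 CPM without it.

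Tox, which acts in lymphoid development and in exhausted T cells, was the rarest of the 9, with 7, 2, 3 and 2 counts in the PBS libraries and 6, 4, 2 and 3 counts in the DRQ libraries. No library stood apart by more than a few counts. With no filter its log2 fold change was -0.10 ± 0.82 (SE; edgeR quasi-likelihood test, Benjamini-Hochberg adjusted p = 0.993), and its sign changed when single libraries were left out, with 0.25 without PBS replicate 1.

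**Figure D2:**
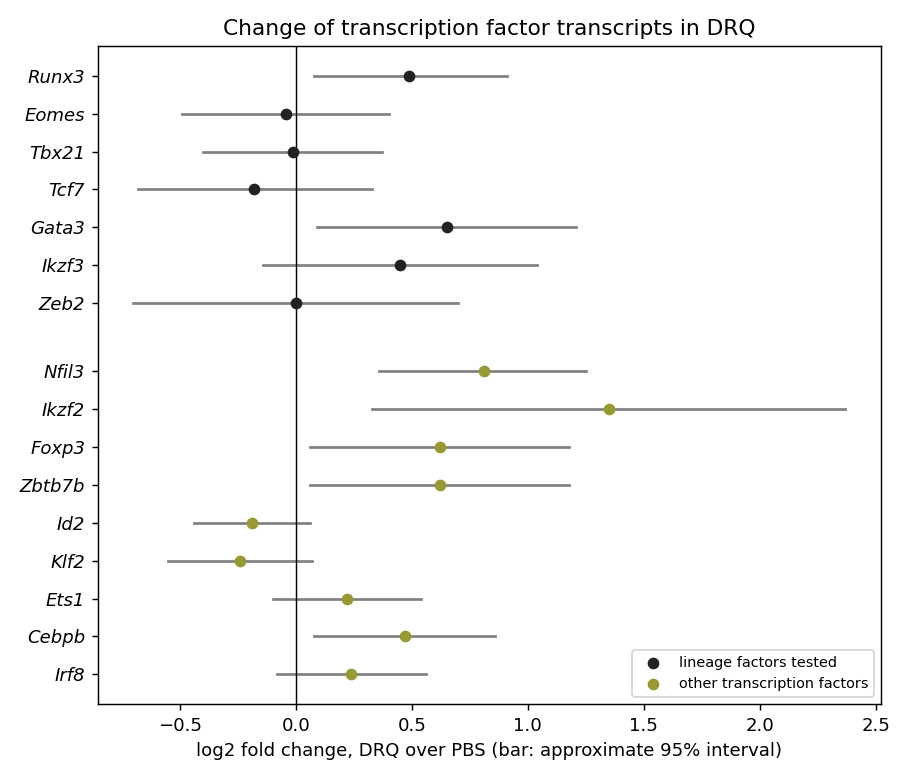
Log2 fold change, DRQ over PBS, of the 7 lineage factors that were tested (black) and of 9 other transcription factor genes (olive), with bars for the approximate 95% interval of each single gene, not adjusted for multiple tests. Eomes, Tbx21 and Zeb2 sit at -0.04, -0.01 and 0.00, Gata3 and Runx3 at 0.65 and 0.49, and none of the genes shown passed over all genes.

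The same libraries stood out for several of the factors, in opposite directions. PBS replicate 1 had the highest Bcl11b and the lowest Runx3 and Zeb2 of all 8 libraries, and the highest Ikzf3 and Gata3 of the PBS group. Tox was also highest there, but at 7 counts against 6 in DRQ replicate 1. DRQ replicate 4 had the highest Bcl11b of the DRQ group and the lowest Eomes, Tcf7 and Zeb2 of that group. Zeb2 and Bcl11b ran opposite to each other over the 8 libraries, with Pearson r = -0.78 (exact permutation p = 0.0226) and Spearman rho = -0.83 (exact permutation p = 0.0154). The pair was named after its values were seen, was 1 of 28 pairs among 8 factors, and did not pass adjustment over them (adjusted p = 0.216 for r and 0.431 for rho). Without PBS replicates 1 and 3, the libraries farthest from the median of Bcl11b, r was -0.71, and with group means subtracted it was -0.85. The counts behind it were 9 to 21 per library for Zeb2 and 1 to 31 for Bcl11b, so counting error is large.

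**Figure D3:**
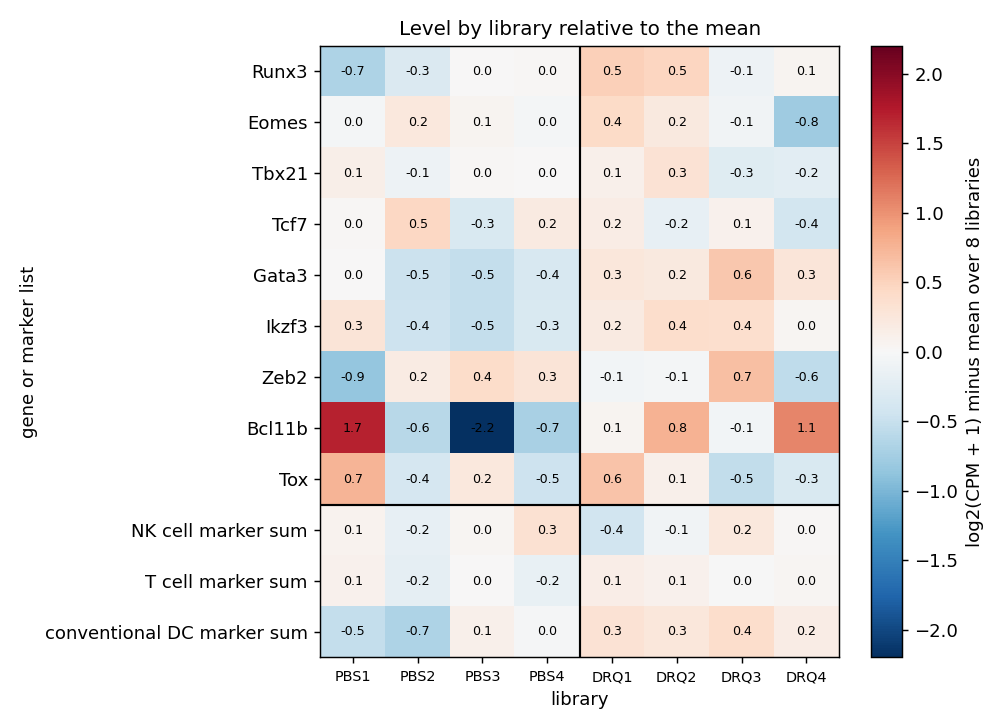
Level of each factor and of the summed NK cell, T cell and conventional DC markers in each library, as log2(CPM + 1) minus the mean over the 8 libraries (colour and printed value; red is above the mean, blue below). The Bcl11b row spans the widest range, and the conventional DC row is above its mean in all 4 DRQ libraries.

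Gata3 and Ikzf3 were low together in PBS replicates 2, 3 and 4 and high together in PBS replicate 1 and the 4 DRQ libraries. PBS replicates 2, 3 and 4 lay apart from the other 5 libraries, neither cluster holds the 6 libraries that a value of its own needs, and so no r over all 8 is given. With the mean of each treatment group subtracted, r was 0.83 for this pair (exact permutation p = 0.0119, adjusted p = 0.132 over the 28 pairs), beside -0.85 for Zeb2 and Bcl11b (exact permutation p = 0.00645, adjusted p = 0.132). None of the 28 pairs passed adjustment, with or without group means subtracted. Eomes and Tbx21 had Pearson r = 0.58 (exact permutation p = 0.125) and Spearman rho = 0.50 (exact permutation p = 0.216), with adjusted p = 0.632 and 0.854 over the 28 pairs, and r = 0.70 without DRQ replicates 2 and 3.

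**Figure D4:**
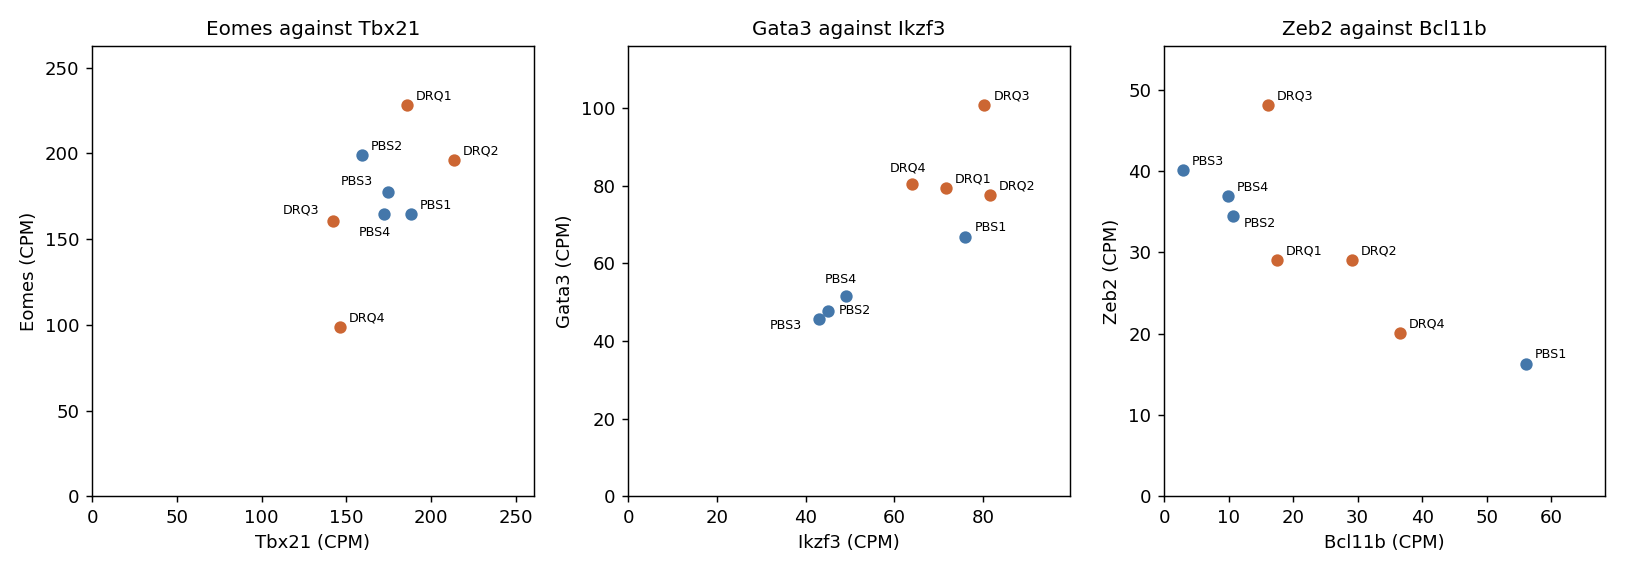
Level (CPM, linear axes) of Eomes against Tbx21, Gata3 against Ikzf3 and Zeb2 against Bcl11b; each point is a library, blue for PBS and orange for DRQ. PBS replicates 2 to 4 sit together at the low end for Gata3 and Ikzf3, and PBS replicate 1 sits at 56.1 CPM of Bcl11b and 16.3 CPM of Zeb2.

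The factors' levels did not follow the summed markers of either lymphocyte type in a way that passed a test. Of 16 relations, those of 8 factors (all but Tox) with the summed NK cell and with the summed T cell markers, 0 passed adjustment. With the T cell markers, r was highest for Ikzf3 at 0.69 (exact permutation p = 0.0632, adjusted p = 0.607; Spearman rho = 0.50, exact permutation p = 0.216, adjusted p = 0.598), and 0.34 without PBS replicates 2 and 4. With the NK cell markers, r was lowest for Eomes at -0.49 (exact permutation p = 0.218, adjusted p = 0.607; Spearman rho = -0.69, exact permutation p = 0.0694, adjusted p = 0.385), and -0.33 without DRQ replicate 1 and PBS replicate 4. Gzma alone had 2682 to 6503 CPM of the NK cell sum.

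Other lymphocyte transcription factors, from a list of 30 of which 24 were counted and 20 tested, included 0 called genes. Their median log2 fold change was 0.11, beside -0.01 over all tested genes, with 12 above 0 and 8 below, and edgeR's unadjusted p was under 0.05 for 4 of the 20, all higher in DRQ, beside 3.98% of all tested genes higher and 3.28% lower. Nfil3, needed for NK cell and type 1 conventional DC development in mouse, had 105, 79.6, 137 and 88.5 CPM in the PBS libraries and 225, 146, 172 and 174 CPM in the DRQ libraries. Its groups were fully apart, with a log2 fold change of 0.81 ± 0.22 (SE; edgeR quasi-likelihood test, Benjamini-Hochberg adjusted p = 0.218).

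The other 3 act in CD4 or regulatory T cells, and Foxp3 and Ikzf2 are also among the regulatory T cell markers summed above. Foxp3, the regulatory T cell factor, had 51.6 to 60.1 CPM in PBS and 61.9 to 109 CPM in DRQ, with a log2 fold change of 0.62 ± 0.27 (SE). Zbtb7b (ThPOK), which directs T cells to the CD4 lineage, had 36.9 to 74.4 CPM in PBS and 75.7 to 100 CPM in DRQ, also with 0.62 ± 0.27 (SE). Both were fully apart, as 3 of the 20 tested genes of this list were, beside 2.13% of all tested genes. Ikzf2 (Helios), found in regulatory T cells and some NK cells, overlapped between groups at 7.24 to 28.6 CPM in PBS and 20.6 to 56.6 CPM in DRQ, with 1.35 ± 0.50 (SE). The edgeR quasi-likelihood test passed none of the 3 (Benjamini-Hochberg adjusted p = 0.639 for Foxp3 and for Zbtb7b, and 0.494 for Ikzf2).

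The most abundant factors of that list overlapped between groups. Id2, which restrains E proteins in all innate lymphocytes and in DCs, had a mean of 1645 ± 178 CPM with PBS and 1444 ± 143 CPM with DRQ (SD, n = 4). Klf2, a factor of resting lymphocytes, averaged 713 ± 152 and 605 ± 49.9 CPM, and Ets1, a factor of T and NK cells, 293 ± 25.4 and 341 ± 43.8 CPM (SD, n = 4). In that order the estimates were -0.19 ± 0.12, -0.24 ± 0.15 and 0.22 ± 0.16 (log2 fold change, SE). Zbtb16 (PLZF), the factor of innate-like T cells and innate lymphoid precursors, was at 0 counts in PBS replicates 2, 3 and 4 and in DRQ replicate 3 and reached 12.7 CPM in PBS replicate 1.

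Transcription factors of DCs, from a list of 14 of which 13 were counted and 11 tested, had a median log2 fold change of 0.24, with 10 of 11 above 0 and 0 called, beside a median of -0.01, 2979 of 6156 above 0 and 0.0325% called over all tested genes. Irf8, a defining factor of type 1 conventional DCs, had a mean of 1635 ± 416 CPM with PBS and 1922 ± 313 CPM with DRQ (SD, n = 4), with 0.24 ± 0.15 (SE). Cebpb, a factor of inflammatory myeloid cells, averaged 161.5 ± 19.3 and 223 ± 47.4 CPM, with 0.47 ± 0.19 (SE; edgeR quasi-likelihood test, Benjamini-Hochberg adjusted p = 0.578). This list shares Id2 and Nfil3 with the lymphocyte list, and its tests come from the same libraries.

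For each tested factor, the genes whose log2 CPM ran closest to it over the 8 libraries were looked up among the tested genes with a mean of at least 20 CPM, 6063 genes for each factor. The 2 nearest had Pearson r of 0.93 to 0.98. They were Scd2, a fatty acid desaturase gene (0.98), and Exoc1 (0.96) for Eomes, Ncoa5 (0.94) and Rbm38 (0.93) for Tbx21, and Plet1 (0.95) and the interleukin-1 decoy receptor gene Il1r2 (0.94) for Gata3. For Runx3 they were Pdcd1lg2, which encodes the PD-1 ligand PD-L2 (0.94), and ENSMUSG00000118491 (0.94), which has no symbol in the name table. Zeb2 ran closest to Grasp (0.94) and Med12 (0.93), Tcf7 to Chtop (0.94) and Nelfe (0.93), and Ikzf3 to Ncoa1 (0.96) and Ebi3, which encodes a subunit of interleukin-27 and interleukin-35 (0.95). The values were picked as the highest among all genes searched and are given as a description.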

How the data were processed

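RNA of sorted cells from 4 PBS and 4 DRQ tumour samples was measured by a bulk MARS-seq, a 3′-end method with molecular identifiers, per the labels' protocols. Per the submitters' processing notes, the tools included STAR 2.7.3a, HTSeq and DESeq2 1.26.0, and the build GRCm39. No source used here says whether identifiers were collapsed or strand was used. The authors deposited whole-number counts per Ensembl gene and a normalized signal, which equalled the count over 1 size factor per library within 0.02 for all 86600 values.

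Tests on counts used edgeR 4.0.16 (R 4.3.3) with TMM scaling and its filterByExpr filter, by the 2-sided quasi-likelihood F test at a Benjamini-Hochberg adjusted p under 0.05 over 6156 genes, with limma 3.58.1 and DESeq2 1.42.0 as alternatives. SEs are the fold change over the root of F, and 95% intervals follow from them. Marker sums and correlations of log2(CPM + 1) used exact permutation. Symbols came from a name table that matched 10788 of 10825 IDs. The members and gene lists were chosen with earlier results of these data known. Named genes were all 9 members; of the lymphocyte and DC factor lists, genes with unadjusted p under 0.05 plus the 3 most abundant; the most abundant markers; and the 2 genes nearest each tested member. Other genes named here (Lef1, Zbtb16, Zbtb46, Xcr1, Clec9a and single T cell, regulatory T cell, ILC1 and ILC2 markers) fall outside that rule and were chosen after their values were seen. Fits were tested on simulated counts. Same-numbered libraries did not deviate together (r of -0.014 to 0.080), so the numbers were not taken as pairs. Every pair of libraries in a group differed beyond counting noise (chi-square over its degrees of freedom 2.73 to 4.04). Figures used matplotlib 3.10.9.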

Additional observations from a re-analysis of the deposited data

Results flagged for a closer look

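A library stood apart from the other 3 of its group in 3 of 64 groups screened (gap to the nearest library over the range of the group above 0.829), where chance gives about 1 in 20. Gata3 was at 101 CPM in DRQ replicate 3, against 77.7 to 80.4 CPM in the other DRQ libraries. Bcl11b was at 56.1 CPM in PBS replicate 1, against 2.86 to 10.6 CPM in the other PBS libraries. The summed mast cell and basophil markers, of which Mcpt8 and Mcpt4 were counted, were at 34.3 CPM in PBS replicate 3, against 0 to 2.65 CPM in the other PBS libraries.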

How the results depend on the processing

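The count of lineage factors called stayed at 0 in every alternative fit that gave a value, as did that of the other lymphocyte factors. The count of all genes called was 2, and became 7 with library totals alone, 15 with DESeq2, 4 with limma-voom, 8 with no filter, 6 with a replicate block, 0 on the normalized table, and 0 to 15 when each library was left out; the cause was not tested. The replicate block changed no call of a lineage factor. Estimates near 0 changed sign: as libraries were left out, Eomes ran from -0.21 to 0.15 (0.02 without PBS replicate 2); Tbx21 from -0.13 to 0.07 (0.03 and 0.06 among them, and 0.01 with no filter); Bcl11b from -0.11 to 0.37 (-0.02 among them; with no filter, -0.01 among them, and 1.64 without PBS replicate 1); and Tox, with no filter, to 0.25, 0.06 and 0.02. Fits with no filter that leave out a library were chosen after seeing the data. Summed markers of gamma delta T cells ran from -0.32 to 0.41 around 0.07 (log2 DRQ over PBS; -0.16 without PBS replicate 4), and those of monocytes and macrophages from -0.24 to 0.51 around 0.28. Correlations with summed markers that changed sign were Gata3 with NK cell markers (0.45 and 0.62), Bcl11b with NK cell markers (0.04, 0.01 and 0.09), Ikzf3 with NK cell markers (0.17 and 0.48), Runx3 with T cell markers (-0.04) and Tcf7 with T cell markers (0.38). Several pairs of factors changed sign too. Among them, Gata3 with Runx3 went from 0.28 to -0.81 with group means subtracted. Eomes with Zeb2 went from 0.36 to -0.84 without DRQ replicate 4 and PBS replicate 1. Neither passed adjustment over the 28 pairs. Depth limits Tox and Bcl11b most, which had fewer than 10 counts in 8 and 5 libraries.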
